A study of Homo sapiens with 16 samples.

Results

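The genes described here are those of MHC class I antigen presentation, read in U251 and U343 cells, which are established human glioblastoma lines, after transfection of mimics of miR-137 or of a control sequence, both at 25 nM. The set was given by name as 9 genes: the heavy chains HLA-B, HLA-C, HLA-E and HLA-F, the light chain B2M, the peptide transporter subunits TAP1 and TAP2, and the inducible proteasome subunits PSMB8 and PSMB9. Of the 9, B2M had a row in all 16 count tables, among 20314 genes in U251 and 20626 in U343, and the other 8 were not analysed here. B2M is therefore described in every library, together with lists of the genes that work beside it.

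Each of the 8 groups (line, assay and mimic) held 2 libraries. RNASeq counted total RNA harvested 48 hours after transfection, and RIPSeq counted RNA that came down with a mix of antibodies against poly(A)-binding protein (PABP), which coats the poly(A) tails of mRNAs. All groups shared the transfection reagent and depletion of ribosomal RNA. U251 libraries were primed with random hexamers and U343 libraries were made with another kit, so that a difference between lines and one between library chemistries cannot be told apart. The labels do not say whether the 2 libraries of a group came from separate cultures, and p-values then measure the spread between libraries, which may be technical. In such bulk RNA, a change in every cell and a change in the share of cells that respond cannot be told apart.

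MHC class I molecules display fragments of a cell's own proteins to CD8 T cells and natural killer cells. A heavy chain pairs with beta-2 microglobulin, the product of B2M, and the pair is loaded in the endoplasmic reticulum with peptides that the proteasome cuts, the TAP transporter carries across the membrane and ER aminopeptidases trim. Interferons raise most of these genes at once, through regulators that include IRF1 and NLRC5, and glioma cells often display little class I. B2M is part of every classical class I molecule, and also of the class I-like MR1, HFE and FcRn.

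The mature strand of miR-137 is shown because it is what the mimic stands for, with its seed (bases 2 to 8) in capitals. The labels give no sequence for either mimic, and this one is from RefSeq, on the minus strand of chr1:98046091-98046113 in GRCh38.p14.

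hsa-miR-137-3p: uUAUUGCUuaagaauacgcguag

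In the count tables B2M spans chr15:42790977-42797649 in hg18 and overlaps no other listed gene. Its promoter in RefSeq (GRCh38.p14, chr15:44711267-44711566, plus strand, 250 bases before the transcription start to 50 after) is printed because members and neighbours in the pathway share a motif in this window. The capitals mark 2 overlapping matches to the core of the interferon-stimulated response element, spelled GAAA, any 2 bases, GAAA, on either strand. The first of them begins 144 bases before the start.

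B2M: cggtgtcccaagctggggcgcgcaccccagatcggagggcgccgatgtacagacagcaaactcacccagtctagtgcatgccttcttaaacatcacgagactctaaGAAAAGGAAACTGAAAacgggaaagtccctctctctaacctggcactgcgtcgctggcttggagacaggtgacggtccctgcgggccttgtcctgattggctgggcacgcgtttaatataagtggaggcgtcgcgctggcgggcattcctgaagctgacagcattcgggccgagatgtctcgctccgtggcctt

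A core of this kind was present in 1255 of the 35116 promoters of the table (3.574%). Among the 9 named genes, 8 had a promoter in the table and 5 of the 8 held it (B2M, HLA-F, TAP1, TAP2 and PSMB8). That count is of genes with the core in any of their promoters, unlike the share of promoters before it. TAP1 and PSMB8 each held it in 1 of 2 promoters. The GAS motif, TTCNNNGAA, was in 2689 of the promoters (7.657%) and had no match in that of B2M. Of the 8 named genes with a promoter, 2 held it, TAP1 and PSMB8, each in 1 of 2 promoters. The class I kappa B site, GGGGA followed by TTCCC, was in 27 promoters (0.07689%), that of HLA-B among them. A match describes letters in this window and no more.

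Library totals were 10156675 to 18224061 reads on genes for U251 RNASeq and 22359794 to 30731476 for U251 RIPSeq, and in U343 they were 37952273 to 45134766 for RNASeq and 37736206 to 45055184 for RIPSeq. B2M had between 16794 and 182195 reads in a library, so counting error is small beside the spread between libraries. Levels below are CPM, counts as a share of a common library total, with totals scaled by trimmed mean of M-values (TMM) within an experiment. As markers of the labelled cells, VIM stood at 3105 to 10730 CPM and CD44 at 772 to 7476 over the 16 libraries, and GFAP at 3.11 to 31.6 CPM in U251 and 3254 to 8129 in U343. The 8 leukocyte markers summed to between 0.707 and 5.43 CPM in U251 and 2.28 to 4.01 in U343, with CD3D, CD3E and MS4A1 never above 0.349 CPM. The 3 endothelial markers summed to 0.412 to 2.83 CPM in U251 and to 25.3 to 41.2 in U343, where VWF and CDH5 were the sources. In U251 RNASeq, 6 of the 8 astroglial markers were called lower with miR-137 and SOX9 higher, beside 29.0% and 28.7% of all genes. The 8 summed to 12337 and 12736 CPM in the controls and 5976 and 6233 CPM after miR-137. Of the same 8, 0 were called in U251 RIPSeq, 2 higher and 0 lower in U343 RNASeq, and 2 higher and 2 lower in U343 RIPSeq. The shares of all genes higher and lower were 0.944% and 0.263%, 8.31% and 11.7%, and 28.5% and 27.8%, in that order. CD14 and CSF1R, the leukocyte markers with enough reads to test in U251 RNASeq, were called higher there. They summed to 0.611 and 1.85 CPM in the controls and 3.16 and 3.55 CPM after miR-137. The part of these markers in the B2M result was not tested.

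A library stood apart. In U343 RNASeq, miR-137 replicate 1 had the regulator NLRC5 at 27.3 CPM, against 28.1 and 30.2 CPM in the controls and 339 CPM in replicate 2. The same library differed from the controls as replicate 2 did at other genes: NES was at 425 and 367 CPM in the miR-137 libraries against 128 and 136.6 CPM in the controls, and HFE at 6.86 and 9.00 CPM against 17.6 and 16.4 CPM. B2M and the list counts in U343 RNASeq are therefore given with both libraries and without either. In U251 RIPSeq the 2 control libraries also lay far apart for several pathway genes, such as CANX at 913 and 2738 CPM and ERAP2 at 22.1 and 56.4 CPM.

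In U251 total RNA, B2M was several times higher after miR-137. The controls held 1072 and 1231 CPM (16794 and 20147 reads), and the miR-137 libraries 4779 and 6362 CPM (53008 and 71750 reads). The groups did not overlap, and every miR-137 library was at least 3.88 times every control. As a share of all counted reads, B2M went from 0.0995% and 0.111% to 0.517% and 0.706%. B2M rose by a log2 fold change of 2.27 ± 0.19 (SE, n = 2 per group; edgeR quasi-likelihood test, Benjamini-Hochberg adjusted p = 5.08e-07), a 4.84-fold change with a 95% interval of 3.64 to 6.44. Of the 13052 genes tested here, 28.7% were called higher and 29.0% lower at an adjusted p under 0.05, and 295 genes (2.26%) had a larger log2 fold change than B2M. With upper-quartile scaling the higher calls were 60.5% of all calls rather than 49.8%, with B2M still higher.

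**Figure D1:**
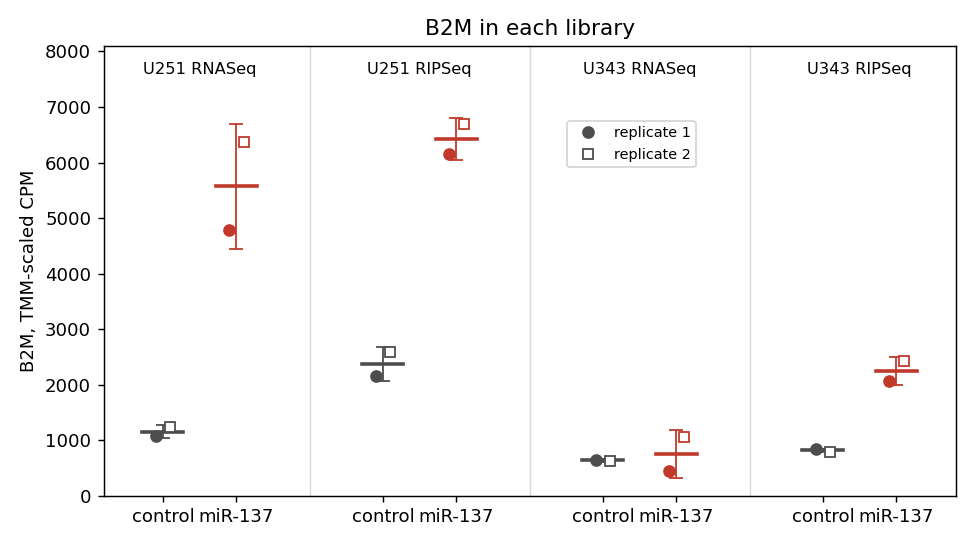
B2M in each of the 16 libraries, as TMM-scaled CPM within each experiment, against mimic and experiment on the horizontal axis. Circles are replicate 1, squares replicate 2, horizontal bars the mean and whiskers the SD of 2 libraries. The miR-137 libraries lie above both controls in U251 RNASeq, U251 RIPSeq and U343 RIPSeq, and on either side of them in U343 RNASeq (447 and 1055 CPM against 648 and 618).

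PABP-bound RNA of U251 gave the same direction at a higher starting level. The controls stood at 2158 and 2591 CPM and the miR-137 libraries at 6152 and 6696 CPM, again with no overlap. The rise of B2M was 1.44 ± 0.16 on the log2 scale (SE, n = 2 per group; edgeR adjusted p = 0.0421), or 2.71-fold with an interval of 2.02 to 3.62. Of the 14087 genes tested, 0.944% were called higher and 0.263% lower, and that share rests on the pair of control libraries. Without control replicate 1 or 2, 69.5% and 76.9% of genes were called in either direction, with B2M at 1.31 and 1.53, and DESeq2 called 589 genes higher and 534 lower with all libraries. The B2M call was lost without the filter on low counts (adjusted p = 0.126) and without miR-137 replicate 2 (1.37, adjusted p = 0.0733), where the remaining miR-137 library is assumed to vary as the controls did.

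In U343 total RNA the miR-137 libraries disagreed. The controls held 648 and 618 CPM of B2M, replicate 1 of miR-137 held 447 CPM and replicate 2 held 1055 CPM, so that 1 lay below both controls and 1 above. The fitted log2 difference was 0.25 ± 0.42 (SE, n = 2 per group; edgeR adjusted p = 0.711), with an interval of -0.86 to 1.35, and did not pass. Here 8.31% of the 15088 genes tested were called higher and 11.7% lower. Without replicate 1 B2M was called higher (0.74 ± 0.10, adjusted p = 0.00319), and without replicate 2 it was called lower (-0.50 ± 0.10, adjusted p = 0.0138), so the direction rests on which library is kept.

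U343 PABP-bound RNA had no such split. B2M was at 835 and 795 CPM in the controls and at 2072 and 2431 CPM after miR-137, and the lowest ratio between a miR-137 and a control library was 2.48. This was a rise of 1.47 ± 0.14 on the log2 scale (SE, n = 2 per group; edgeR adjusted p = 8.74e-05), or 2.76-fold with an interval of 2.21 to 3.45. Of 14866 genes tested, 28.5% were called higher and 27.8% lower, and 6.03% had a larger log2 fold change than B2M.

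The study's own rule sets every control library against every miR-137 library of an experiment, 4 pairs in all, with Fisher's exact test, and needs each odds ratio to exceed 2 with adjusted p below 0.001; it was mirrored here to count genes that were higher. B2M met the mirrored rule in U251 RNASeq, with odds ratios of 4.69 to 7.15, where 6.14% of all listed genes met it. It also met it in U251 RIPSeq (2.71 to 3.04; 3.47% of genes) and in U343 RIPSeq (2.39 to 3.19; 4.83% of genes). Scaling totals by TMM turned the 1248 higher and 448 lower genes of U251 RNASeq into 793 each way, and without control replicate 2 the 704 higher genes of U251 RIPSeq became 2299. B2M met the rule with the scaled totals. With a library left out only the remaining pairs must pass, so the count could not fall and B2M was bound to pass again. In U343 RNASeq, where 1.51% of genes met it, the odds ratios for B2M ran from 0.682 to 1.65 and the rule was not met in either direction.

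Tests of the differences between these responses were fitted next. The B2M response in total RNA was smaller in U343 than in U251, with a difference of log2 fold changes of -2.04 ± 0.47 (SE, n = 2 per group; edgeR adjusted p = 0.0166), a difference called in either direction for 25.2% of 15550 genes. That call held without U343 miR-137 replicate 1 (-1.55, adjusted p = 0.000513) and without replicate 2 (-2.78, adjusted p = 3.62e-06). It was lost without either U251 control (adjusted p = 0.0646 and 0.0610), without U251 miR-137 replicate 2 (0.0766) and without either U343 control (0.0545 and 0.0506). Over these fits with a library left out, 11.9% to 36.5% of genes were called. In PABP-bound RNA the response of the lines differed by 0.08 ± 0.21 (interval -0.42 to 0.58; edgeR adjusted p = 0.867; 3.28% of genes called), an interval that spans 0.749 to 1.496-fold.

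Between assays within a line, the response of B2M in PABP-bound RNA less that in total RNA was -0.88 ± 0.26 in U251 (interval -1.49 to -0.28; edgeR adjusted p = 0.163) and 1.22 ± 0.49 in U343 (interval 0.07 to 2.37; adjusted p = 0.266). Neither passed, in fits where 0.134% and 0.00649% of genes were called. The U251 difference passed without RIPSeq control replicate 1 (-0.91, adjusted p = 0.0180) or 2 (-0.73, adjusted p = 0.0175), in fits where 20.2% and 60.5% of all genes passed. The U343 difference was 0.72 without RNASeq miR-137 replicate 1 (adjusted p = 0.138) and 1.95 without replicate 2 (adjusted p = 2.80e-04), where 0.188% and 20.2% of genes were called.

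**Figure D2:**
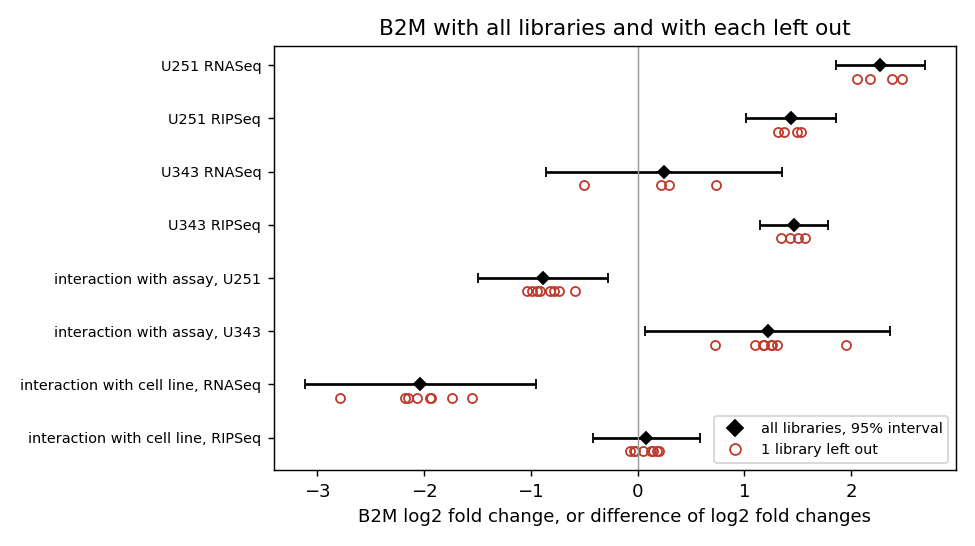
B2M log2 fold changes (miR-137 over control) in the 4 experiments and the differences of log2 fold changes between assays (PABP-bound minus total) or lines (U343 minus U251). Diamonds are fits to all libraries with 95% intervals and open circles are fits with 1 library left out. In U343 RNASeq the circles run from -0.50 to 0.74, and in U251 RNASeq from 2.06 to 2.48.

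Before any miR-137, the lines differed in B2M. In control total RNA scaled together, U251 held 1023 and 1166 CPM and U343 held 638 and 611 CPM. B2M was lower in U343 by a fitted log2 difference of -0.81 ± 0.11 (SE, n = 2 per group; edgeR adjusted p = 1.42e-04), where 39.9% of 14787 genes were called lower and the median gene was at 0.10. Library chemistry differed along with the line.

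Among control libraries, B2M took a larger share of PABP-bound RNA than of total RNA. In U251 the level was 965 and 1096 CPM in total RNA and 2200 and 2507 CPM in PABP-bound RNA, a log2 difference of 1.19 ± 0.26 (edgeR adjusted p = 0.0358, n = 2 per group; 7.87% of genes higher). That call was lost without the filter on low counts (1.03, adjusted p = 0.174) and without either total RNA control (adjusted p = 0.374 and 0.290), where 2.14% and 1.84% of genes were called in either direction. In U343 it was 627 and 599 CPM against 872 and 829 CPM, a log2 difference of 0.47 ± 0.08 (edgeR adjusted p = 0.00245, n = 2 per group; 24.4% of genes higher).

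With all 16 libraries on one scale, the order of B2M levels was U343 RNASeq control (626 ± 21.3 CPM, SD, n = 2), U343 RNASeq miR-137 (744 ± 406), U343 RIPSeq control (897 ± 32.8), U251 RNASeq control (1106 ± 113), U251 RIPSeq control (2340 ± 546), U343 RIPSeq miR-137 (2449 ± 269), U251 RNASeq miR-137 (5221 ± 1137) and U251 RIPSeq miR-137 (6614 ± 373). The library ranges of U343 RNASeq miR-137 covered those of U343 RNASeq and U343 RIPSeq controls and reached that of U251 RNASeq controls, and U251 RIPSeq controls overlapped U343 RIPSeq miR-137. The other neighbours in the order did not overlap.

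The inducible proteasome genes outside the named set are PSMB10, the catalytic subunit that replaces PSMB7, and PSME1 and PSME2, the alpha and beta chains of the PA28 cap that speeds peptide release. All 3 were called higher in U251 RNASeq and in U343 RIPSeq, beside 28.7% and 28.5% of all genes, and edgeR called none in U251 RIPSeq and U343 RNASeq, beside 0.944% and 8.31%. In U251 RIPSeq all 3 had an unadjusted p under 0.05 and DESeq2 called all 3 higher, and in U343 RNASeq neither gave any. On data simulated for U251 RIPSeq with the spread that edgeR estimated, 39 of 203 DESeq2 calls were false, against 5 of 101 edgeR calls. Of 200 genes changed 4-fold there, DESeq2 recovered 82% and edgeR 48%. PSME1 went from 58.6 and 59.7 CPM to 253 and 314 CPM in U251 RNASeq (log2 fold change 2.26 ± 0.14, edgeR adjusted p = 4.10e-08), and from 151 and 144 CPM to 211 and 213 CPM in U343 RIPSeq (0.52 ± 0.08, adjusted p = 0.00129). PSME1 overlaps FAM158A in the annotation used for counting. PSMB10 went from 18.1 and 22.7 CPM to 49.0 and 51.5 CPM in U251 RNASeq (1.30 ± 0.15, adjusted p = 7.77e-06), and from 33.7 and 34.1 CPM to 120 and 124 CPM in U343 RIPSeq (1.85 ± 0.08, adjusted p = 2.75e-06). In U343 RNASeq, PSMB10 was 60.1 and 68.7 CPM in the controls and 47.7 and 134 CPM after miR-137, the same split between libraries as for B2M. In U251 RIPSeq, PSMB10 was 19.1 and 10.9 CPM in the controls and 46.1 and 43.5 CPM after miR-137. PSME2 was 93.9 and 61.0 CPM in those controls and 248 and 271 CPM after miR-137. The list's median log2 fold change was 1.64, 1.58, 0.29 and 1.28 in U251 RNASeq, U251 RIPSeq, U343 RNASeq and U343 RIPSeq, where the median of all genes lay between -0.02 and 0.02.

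All 3 of these promoters held the response element core. So did 1 of the 2 promoters listed for each of the trimming enzymes, ERAP1 and ERAP2. Of the list genes with a promoter in the table, the core was in 2 of 5 for loading and trimming, 2 of 7 regulators (RFX5 and RELA), 0 of 3 other class I genes, 0 of 4 class II genes and not in PSMB5. A gene was counted if any of its promoters held the core, which was 1 of 3 for RFX5 and 1 of 2 for RELA. For the inducible proteasome and trimming genes, 30-base windows around the core are printed to set beside that of B2M. The capitals mark the core, which in PSME1 and ERAP1 reads on the other strand, and the windows come from RefSeq in GRCh38.p14 (PSMB10 chr16:67936852-67936881, minus strand; PSME1 chr14:24136189-24136218, plus; PSME2 chr14:24146619-24146648, minus; ERAP1 chr5:96807924-96807953, minus; ERAP2 chr5:96876460-96876489, plus).

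PSMB10: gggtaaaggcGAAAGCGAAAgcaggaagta

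PSME1: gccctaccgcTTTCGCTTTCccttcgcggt

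PSME2: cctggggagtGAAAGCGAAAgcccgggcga

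ERAP1: cgggctccacTTTCACTTTCggtcctgggg

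ERAP2: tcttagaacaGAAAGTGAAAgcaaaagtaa

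The constitutive subunits that the inducible ones replace, PSMB5, PSMB6 and PSMB7, gave no higher call in any of the 4 experiments with edgeR or DESeq2, nor at an unadjusted p under 0.05. PSMB6, the counterpart of PSMB9, fell in 3 of them: by 0.71 on the log2 scale in U251 RNASeq (298 and 358 CPM to 189 and 213 CPM; edgeR adjusted p = 7.97e-04), by 0.50 in U343 RNASeq (195 and 207 CPM to 143 and 142 CPM; adjusted p = 0.0310) and by 0.80 in U343 RIPSeq (193 and 220 CPM to 124 and 113 CPM; adjusted p = 3.97e-04). Both U343 RNASeq miR-137 libraries sat at the same PSMB6 level, unlike B2M. PSMB5 was called lower in U343 RIPSeq and PSMB7 was not called in any of the 4. For all genes, the edgeR share called higher was 28.7% in U251 RNASeq, 0.944% in U251 RIPSeq, 8.31% in U343 RNASeq and 28.5% in U343 RIPSeq. The share called lower was 29.0%, 0.263%, 11.7% and 27.8%, in that order.

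Of 7 genes of peptide loading and trimming, 6 could be followed, with calls in both directions: 3 were higher and 2 lower in U251 RNASeq, and 2 higher and 2 lower in U343 RIPSeq. Over all genes the shares were 28.7% higher and 29.0% lower in U251 RNASeq, and 28.5% and 27.8% in U343 RIPSeq. ERAP2, which trims peptides in the endoplasmic reticulum, went from 31.4 and 36.7 CPM to 141 and 104 CPM in U251 RNASeq (1.84 ± 0.16, edgeR adjusted p = 7.12e-07), and from 7.62 and 6.64 CPM to 15.4 and 17.4 CPM in U343 RIPSeq (1.20 ± 0.12, adjusted p = 1.50e-04). TAPBPL, an editor of class I peptides related to tapasin, went from 0.766 and 0.672 CPM to 5.50 and 7.45 CPM in U251 RNASeq (3.16 ± 0.31, adjusted p = 1.92e-06). In U343, where total RNA of the controls held 40.4 and 47.3 CPM, TAPBPL rose in RIPSeq from 67.2 and 59.2 CPM to 91.3 and 98.6 CPM (0.59 ± 0.09, adjusted p = 0.00128). TAPBPL overlaps VAMP1 in the annotation. ERAP1, which overlaps CAST, was called higher in U251 RNASeq alone of the 4 experiments (0.65 ± 0.15, adjusted p = 0.00215).

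The chaperones of the loading compartment were lower where they were called. Calreticulin (CALR) fell by 1.06 on the log2 scale in U251 RNASeq, from 1992 and 2242 CPM to 1017 and 1019 CPM (edgeR adjusted p = 6.22e-05), and by 0.56 in U343 RIPSeq (adjusted p = 0.0199; 0.179 and 0.0916 without control replicate 1 or 2). In U343 RNASeq CALR was 1274 and 1295 CPM in the controls and 1034 and 1032 CPM after miR-137, where it fell by 0.31 with both libraries (adjusted p = 0.0450) and missed without replicate 1 (adjusted p = 0.0686) or replicate 2 (adjusted p = 0.0734). Its log2 fold change stayed between -0.32 and -0.30 in these fits and in those without either control (adjusted p = 0.290 and 0.318), where no gene was called. Calnexin (CANX) fell by 1.33 on the log2 scale in U251 RNASeq (3113 and 3270 CPM to 1317 and 1221 CPM, edgeR adjusted p = 1.09e-05). It was not called by edgeR in the other experiments. PDIA3, the disulfide isomerase of the loading complex, was called lower by edgeR in U343 RIPSeq alone. In U343 RNASeq PDIA3 was 222 and 214 CPM in the controls and 172 and 173 CPM after miR-137. Of the 6 loading and trimming genes, DESeq2 called 2 lower in U343 RNASeq and 3 in U343 RIPSeq, where edgeR called 1 and 2. In U251 RIPSeq DESeq2 called 1 of them higher and edgeR 0.

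Other partners of B2M moved in opposite directions. HFE, which regulates iron uptake, fell in 3 of the 4 experiments: by 1.16 on the log2 scale in U251 RNASeq (6.76 and 6.48 CPM to 3.07 and 2.84 CPM; edgeR adjusted p = 6.37e-04), by 1.10 in U343 RNASeq (adjusted p = 0.0246) and by 1.28 in U343 RIPSeq (19.3 and 15.7 CPM to 7.81 and 6.64 CPM; adjusted p = 2.25e-04). In U251 RIPSeq HFE was 12.3 and 11.6 CPM in the controls and 2.75 and 3.38 CPM after miR-137. There HFE was not called by edgeR (adjusted p = 0.0562) and was called lower by DESeq2. MR1, which presents vitamin metabolites to MAIT cells, rose in U251 RNASeq from 9.45 and 9.35 CPM to 19.9 and 18.3 CPM (1.02 ± 0.16, adjusted p = 1.17e-04) and in U343 RIPSeq from 23.5 and 20.1 CPM to 60.1 and 56.7 CPM (1.42 ± 0.10, adjusted p = 2.51e-05). FCGRT, the heavy chain of FcRn, was not called by edgeR in any experiment, and DESeq2 called it lower in U251 RIPSeq (-1.505, adjusted p = 0.00897). The other 7 class I and class I-like genes of this list were not analysed here. Beside the edgeR calls of HFE, 29.0%, 11.7% and 27.8% of all genes were called lower in U251 RNASeq, U343 RNASeq and U343 RIPSeq. Beside those of MR1, 28.7% and 28.5% were called higher in U251 RNASeq and U343 RIPSeq.

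**Figure D3:**
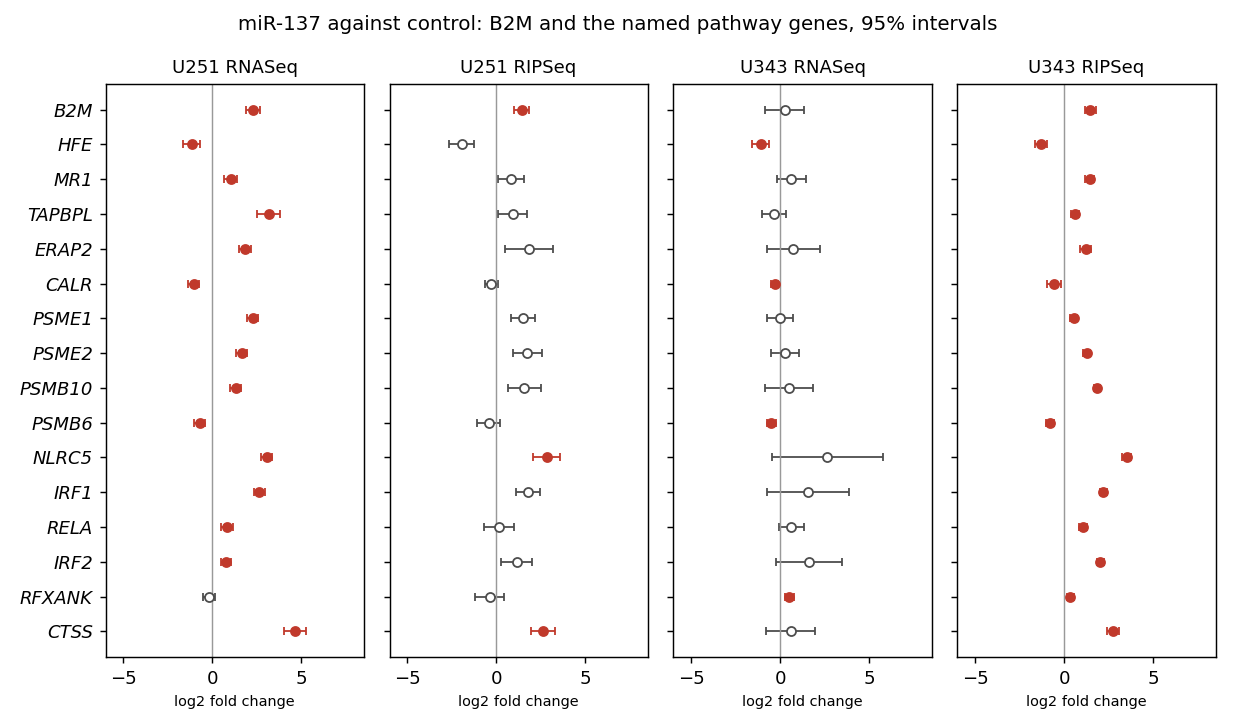
Log2 fold changes of miR-137 over control in the 4 experiments for B2M and the pathway genes called in at least 2 of them, with 95% intervals from edgeR. Filled red points passed an adjusted p of 0.05 and open points did not. B2M passed in 3 experiments, HFE, CALR and PSMB6 lay below 0 in all 4, and intervals in U343 RNASeq are widest for NLRC5.

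Of 10 regulators of class I transcription, 5 of the 9 tested were called higher in U251 RNASeq, where 28.7% of all genes were, and 7 of 10 in U343 RIPSeq, where 28.5% were. No regulator was called lower in any of the 4 experiments. The share of all genes called lower was 29.0% in U251 RNASeq, 0.263% in U251 RIPSeq, 11.7% in U343 RNASeq and 27.8% in U343 RIPSeq. NLRC5, the transactivator of class I promoters, was the regulator called in 3 of the 4 experiments. It went from 10.2 and 10.2 CPM to 85.8 and 83.4 CPM in U251 RNASeq (3.05 ± 0.14, edgeR adjusted p = 1.48e-09), from 10.9 and 8.23 CPM to 68.9 and 68.0 CPM in U251 RIPSeq (2.84 ± 0.29, adjusted p = 0.0354) and from 21.3 and 25.0 CPM to 263 and 263 CPM in U343 RIPSeq (3.51 ± 0.11, adjusted p = 6.34e-07). The U251 RIPSeq call was lost without miR-137 replicate 1 (adjusted p = 0.0684) or 2 (0.0646), without the filter on low counts (0.0531) and with upper-quartile scaling (0.0504). CIITA, its relative for class II, was not called in the 3 experiments that tested it. By unadjusted p under 0.05 there was 1 lower regulator in either RIPSeq experiment and none in RNASeq, and DESeq2 called none lower.

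IRF1, an activator of class I promoters, rose in U251 RNASeq and U343 RIPSeq, by edgeR log2 fold changes of 2.64 ± 0.14 and 2.19 ± 0.09 (adjusted p = 6.22e-09 and 2.04e-06). IRF2, which competes with IRF1 for its sites, rose by 0.75 ± 0.13 and 2.02 ± 0.08 (adjusted p = 2.29e-04 and 2.30e-06), and RELA, an NF-kappa B subunit, by 0.80 ± 0.15 and 1.04 ± 0.10 (adjusted p = 6.20e-04 and 8.97e-05). Of the RFX subunits, RFXAP was called higher in U251 RNASeq, RFX5 in U343 RIPSeq, and RFXANK, which overlaps NR2C2AP, in both U343 assays (0.52 ± 0.10, adjusted p = 0.0351 in total RNA; 0.35 ± 0.09, adjusted p = 0.0126 in PABP-bound RNA, lost without control replicate 1 or miR-137 replicate 1 at 0.0887 and 0.0759). NFKB1 was called higher in U343 RIPSeq and CREB1 in none. The median of the list was 0.75, 0.22, 0.35 and 0.64 in U251 RNASeq, U251 RIPSeq, U343 RNASeq and U343 RIPSeq, beside medians of all genes from -0.02 to 0.02.

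In U343 RNASeq, NLRC5, IRF1, IRF2, RFX5 and RELA were higher in miR-137 replicate 2 than in replicate 1, as B2M was. Other regulators lay closer together in replicates 1 and 2. RFXANK was at 1.47 and 1.39 times the control mean, NFKB1 at 1.11 and 1.16 and CREB1 at 0.76 and 0.90. RFXAP was at 0.87 and 0.65, and CIITA had 0.64 and 0.97 CPM. NLRC5 was 28.1 and 30.2 CPM in the controls, 27.3 CPM in miR-137 replicate 1 and 339 CPM in replicate 2. IRF1 was 78.7 and 80.8 CPM in the controls, 64.5 CPM in replicate 1 and 405 CPM in replicate 2. Neither passed with both libraries (edgeR adjusted p = 0.181 and 0.261). Without replicate 1, 6 of 10 regulators, all 3 inducible proteasome genes and B2M were called higher, where 2937 of the 15088 genes tested were higher and 3065 lower. Without replicate 2, 1 regulator was called higher (RFXANK), 2 regulators (IRF1 and CREB1), 2 inducible proteasome genes and B2M were called lower, and 2775 genes were higher and 2930 lower among all tested. HFE, PSMB6 and RFXANK kept their calls in both of these fits. Without control replicate 1 or 2, edgeR called none of the 15088 genes (2829 and 2731 had an unadjusted p under 0.05; DESeq2 was not run on these fits), and the log2 fold changes were -1.04 and -1.14 for HFE, -0.53 and -0.45 for PSMB6 and 0.45 and 0.61 for RFXANK. Of the 6 loading and trimming genes, 1 was higher and 1 lower without miR-137 replicate 1, and 3 were lower without replicate 2.

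**Figure D4:**
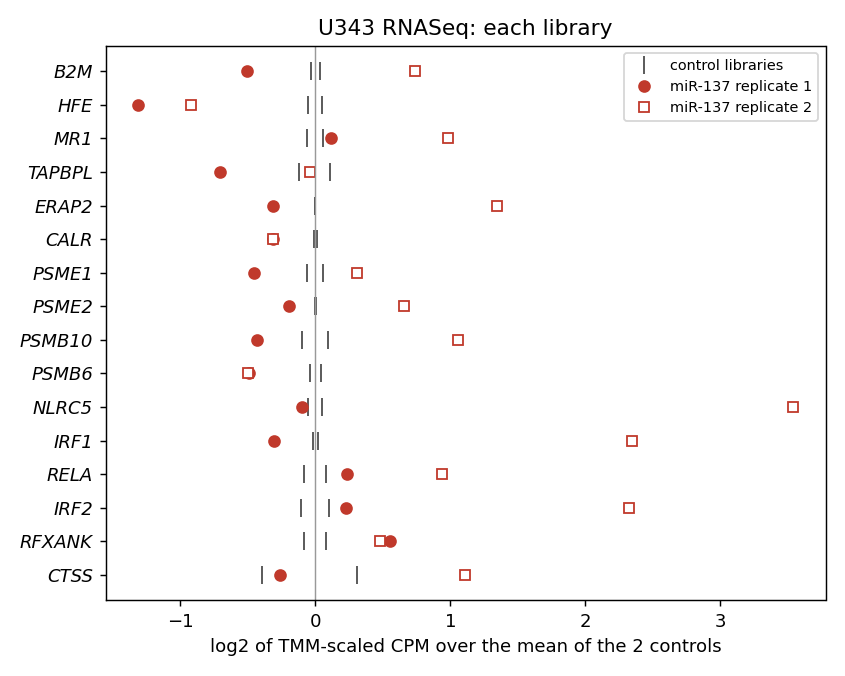
U343 RNASeq libraries as the log2 ratio of TMM-scaled CPM to the mean of the 2 controls, for B2M and the pathway genes called in at least 2 experiments. Grey ticks are the controls, red circles miR-137 replicate 1 and open squares replicate 2. NLRC5 is near the controls in replicate 1 and 11.6 times their mean in replicate 2, while CALR, PSMB6 and RFXANK sit together in both.

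Of 14 genes listed for MHC class II, 5 had rows. The 4 other than CTSS (HLA-DRB5, HLA-DQA1, HLA-DQB1 and CD74) summed to at most 0.336 CPM in U251 and 1.88 CPM in U343, over control and miR-137 libraries. CD74 was 0.51 and 0.59 CPM in the U343 RIPSeq controls and 0.64 and 1.61 CPM after miR-137 (25 and 63 reads). Its unadjusted edgeR p was under 0.05 there, and it was not called. In U343 RNASeq CD74 was 0.28 and 0.34 CPM in the controls and 0.24 and 0.14 CPM after miR-137. CTSS, a lysosomal protease that trims the class II invariant chain, went from 0.447 and 0.917 CPM to 15.7 and 19.2 CPM in U251 RNASeq (4.65 ± 0.28, edgeR adjusted p = 2.48e-08). It was also higher in U251 RIPSeq (2.63 ± 0.26, adjusted p = 0.0340; 0.0586 and 0.0535 without miR-137 replicate 1 or 2) and U343 RIPSeq (2.73 ± 0.14, adjusted p = 6.92e-06), and in U343 RNASeq stood at 7.71 and 20.0 CPM after miR-137 against 11.5 and 7.02 CPM in the controls (adjusted p = 0.476).

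The 5 genes whose pattern over the 16 libraries was most like that of B2M were SQRDL (Pearson r = 0.981), CTSS (0.978), BTN3A3 (0.972), UBA7 (0.972) and OAS2 (0.968), among 10723 genes with at least 50 reads on average in each line. The measure was log2 CPM after subtraction of each experiment's mean, so the points share the miR-137 contrast and their library's depth, and r is a description. Within U251 alone these genes had r from 0.971 to 0.984, and within U343 from 0.964 to 0.990. SQRDL is a mitochondrial sulfide oxidase, BTN3A3 a butyrophilin, UBA7 the activating enzyme of ISG15 and OAS2 an oligoadenylate synthetase.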

How the data were processed

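RNASeq and RIPSeq libraries of U251 and U343 cells (16 in all, grouped by line, assay and transfection as labelled) were used. The authors placed 36-cycle reads on hg18 using RMAP and summed them over 1 merged transcript per RefSeq gene, and the deposited tables hold these raw read counts, not normalized. An additional U251 replicate mentioned in the methods was not analysed here. U251 tables list SLC35E2 on 2 lines, of which the first was kept. How reads with several matches were counted is not given in the sources used here, and strand was not used.

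Genes were tested with edgeR 4.0.16 in R 4.3.3 (TMM, filterByExpr, quasi-likelihood F test, Benjamini-Hochberg adjustment over all genes tested, threshold 0.05) within each comparison, with interactions for differences between lines or assays. The study's pairwise rule (Fisher's exact test, two-sided) was run with scipy on the 4 pairs of each experiment. Alternatives were DESeq2 1.42.0, upper-quartile scaling, other count filters, a replicate block, a joint fit of each line, and each library left out; for the rule, an odds ratio over 1.5, at least 3 of 4 pairs and TMM-scaled totals. The edgeR and DESeq2 fits to all libraries and the pairwise rule were tested on simulated data; of 200 genes changed 4-fold, edgeR recovered 100% in U251 RNASeq and U343 RIPSeq, 94% in U343 RNASeq and 48% in U251 RIPSeq, and 49% and 84.5% for the assay differences in U251 and U343, 91.5% and 55.5% for the line differences in RNASeq and RIPSeq. Counts for the edgeR and DESeq2 fits were simulated with the spread that edgeR estimated. In these simulations, false calls in U251 RIPSeq were 5 of 101 with edgeR and 39 of 203 with DESeq2. In U343 RNASeq they were 14 of 202 and 52 of 244. In U251 RNASeq they were 20 of 220 and 9 of 209, and in U343 RIPSeq 21 of 221 and 20 of 220. The other alternatives were not simulated. Intervals and SEs cover the spread between libraries as modelled.

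The set and the lists were chosen with earlier results of these data known. Of the lists, genes called in at least 2 of the 4 miR-137 comparisons are given by value (15 genes), and single calls by name; a few items are not reported here and were left out of the lists. List genes were matched by symbol: 3 of 10 other class I, 6 of 7 loading, 3 of 3 inducible proteasome, 3 of 3 constitutive, 10 of 10 regulators and 5 of 14 class II genes. Same-numbered libraries of the 2 mimics had deviations correlated at 0.033 to 0.279 over genes, in 2 pairs per experiment, and no source ties the numbers, so libraries were not paired.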

Additional observations from a re-analysis of the deposited data

Results flagged for a closer look

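Responses to miR-137 in total RNA that differed between the cell lines, by an edgeR test of the difference itself (U343 minus U251, adjusted p under 0.05), are gathered here; line and library chemistry cannot be told apart. For B2M the difference of log2 fold changes was -2.04, and for the inducible PA28 chains PSME1 and PSME2 it was -2.29 and -1.35. The peptide editor TAPBPL had -3.51 and the protease CTSS -4.09. CALR, at 0.73, fell less in U343, and RFXANK, at 0.69, was higher in U343 and not called in U251. The B2M call was lost without some other U251 or U343 libraries, as given above. For the other genes, only the fits without a U343 miR-137 library are given. All 7 were called as well without U343 RNASeq miR-137 replicate 1, at which B2M stood at -1.55, and without replicate 2, at -2.78. Without replicate 2, where 36.5% of genes were called, NLRC5 (-3.15), IRF1 (-2.95), ERAP2 (-2.17), PSMB10 (-1.74) and MR1 (-0.91) were called too, against -0.41, -1.09, -1.11, -0.81 and -0.42, not called, with all libraries. IRF2 was not called with all libraries (0.87) and was called in opposite directions without replicate 1 (1.56) and without replicate 2 (-0.53).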

How the results depend on the processing

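B2M kept its direction and its side of the threshold in the 4 miR-137 comparisons, 4 interactions and 3 control comparisons under DESeq2, upper-quartile scaling, at least 50 reads on average and, for the miR-137 comparisons, the joint fit of a line. Without the filter on low counts, 2 calls were lost: U251 RIPSeq (1.502, adjusted p = 0.126) and PABP-bound against total RNA in U251 (1.03, adjusted p = 0.174), and the cause was not tested. The pairwise rule gave the same B2M answer in all 4 experiments under every alternative run. Where B2M met the rule, only the TMM-scaled totals could have removed that call. An odds ratio over 1.5, at least 3 of 4 pairs and a left-out library each ask less than the rule itself. With 1 library left out, B2M ran from 2.06 to 2.48 in U251 RNASeq, 1.31 to 1.53 in U251 RIPSeq, -0.50 to 0.74 in U343 RNASeq and 1.35 to 1.57 in U343 RIPSeq. The difference between assays ran from -1.03 to -0.59 in U251 and 0.72 to 1.95 in U343, and that between lines from -2.78 to -1.55 in RNASeq and -0.070 to 0.20 in RIPSeq. U343 against U251 ran from -0.91 to -0.71, and PABP-bound against total RNA from 1.10 to 1.29 in U251 and 0.43 to 0.51 in U343. The sign turned without U343 RNASeq miR-137 replicate 2 (-0.50) and, for the line difference in RIPSeq, without U251 control replicate 2 (-0.025), U251 miR-137 replicate 1 (-0.070) or U343 miR-137 replicate 2 (-0.036). A leave-one-out group of 1 library is assumed to vary like the others.

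A replicate block changed no B2M call: 2.26, 1.44, 0.12 and 1.46 in U251 RNASeq, U251 RIPSeq, U343 RNASeq and U343 RIPSeq, -0.87 and 1.27 for the assay differences, -2.15 and 0.08 for the line differences, and -0.81, 1.19 and 0.47 in the control comparisons. It moved the number of genes called in U251 RIPSeq from 170 to 802, in the line difference in RIPSeq from 524 to 119, in PABP-bound against total RNA in U251 from 1855 to 4036 and in the assay differences of U251 and U343 from 19 and 1 to 0. CALR, PSMB6 and RFXANK missed the threshold in U343 RNASeq under the block (adjusted p = 0.0669, 0.0625 and 0.0624).

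Genes called over the whole table moved most with 1 library left out. They ran from 127 to 10838 in U251 RIPSeq (170 with all libraries), 0 to 6002 in U343 RNASeq (3018), 0 to 8604 and 0 to 3112 for the assay differences of U251 and U343 (19 and 1), 1850 to 5675 and 2 to 9136 for the line differences in RNASeq and RIPSeq (3922 and 524) and 244 to 10129 for PABP-bound against total RNA in U251 (1855). Genes higher by the pairwise rule ran from 1372 to 1940 in U251 RNASeq (1248), 750 to 2299 in U251 RIPSeq (704), 394 to 914 in U343 RNASeq (311) and 1097 to 1289 in U343 RIPSeq (997). U251 RIPSeq gave 1123 with DESeq2, 59 without the filter and 2355 in the joint fit; the joint fit gave 2951 in U251 RNASeq (7529 in the fit of that experiment) and 5033 in U343 RNASeq (3018). DESeq2 gave 717 and 399 for the assay differences in U251 and U343, 1860 for the line difference in RIPSeq and 3615 for PABP-bound against total RNA in U251, where no filter gave 100. For the assay differences, upper-quartile scaling and no filter gave 9 and 32 in U251, and no filter and 50 reads gave 2 and 0 in U343. Upper-quartile scaling put the median gene of U251 RNASeq at 0.16 rather than 0.02. Of the called values of the 15 list genes, 195 alternatives without a left-out library kept the call and 14 lost it, with 122 and 18 for left-out libraries. Summing the HLA heavy chains into 1 row could not be run, as no heavy chain was read here. Depth limits TAPBPL and CTSS in U251 controls, at under 1 CPM in total RNA.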
